A study of Mus musculus with 6 samples.

Results

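The proteasome genes of refed epididymal white adipose tissue (WAT) were analysed. They were chosen by name: all genes of the deposited table whose symbols run from *Psma* to *Psmg* with a number were taken, which gave 49 of 24346 genes. Of these, 47 passed a filter on low values, an FPKM (fragments scaled to exon length and to the mapped fragments of the library) of at least 1 in 3 or more of the 6 libraries. The libraries were made from stranded mRNA of epididymal WAT, 3 of Armc5 flox mice and 3 of AdArmc5 KO mice. Both groups carried floxed *Armc5* alleles, with exons 2 to 3 between the loxP sites, and AdArmc5 KO also carried *Adipoq-Cre*, so *Armc5* was deleted in adipocytes but not by design in the other cells of the tissue. All mice were 24 weeks old, fasted for 24 h and refed for 6 h. The comparison asked whether loss of adipocyte *Armc5*, the substrate adaptor of a CUL3 ubiquitin ligase, was accompanied by other levels of the mRNAs for the proteasome. That the samples of a group came from separate mice is not said in the labels, so p-values measure the spread between these samples.

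The proteasome is the protease that degrades ubiquitinated proteins. Its barrel, the 20S core, is a stack of rings of alpha and beta subunits, and the beta subunits PSMB5, PSMB6 and PSMB7 carry the active sites. The 19S cap, made of ATPases (PSMC) and non-ATPases (PSMD), binds and unfolds substrates. In leukocytes, and in other cells exposed to interferon, the catalytic subunits PSMB8, PSMB9 and PSMB10 are built into new cores in place of PSMB5, PSMB6 and PSMB7. This immunoproteasome, with the activator PA28 of PSME1 and PSME2, shapes the peptides loaded on MHC class I. When proteasome activity falls short, the transcription factor NFE2L1 (NRF1), which has been described as a substrate of the ARMC5-CUL3 ligase, raises transcription of the constitutive subunits.

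Library depth was 25320771 to 38311553 fragments. The FPKM of *Armc5*, taken over the whole gene and so also over exons that are not deleted, was 5.12, 5.66 and 5.58 in flox 1, 2 and 3 and 3.66, 4.48 and 5.82 in the libraries labelled KO 1, 2 and 3. The library labelled KO 3 was thus above all flox libraries for the targeted gene, and every direction below rests on its label. Libraries also stood apart by other tissues. Summed FPKM of 5 genes of ciliated cells was 139 in flox 1 and 118 in KO 2 against 0.909 to 3.12 in the other libraries, and that of 5 genes of the epididymal duct and vas deferens was 3807 in KO 3 against 0.383 to 20.01. Adipocyte markers were high in all libraries, with *Adipoq* at 1896 to 4219 FPKM. Of the 8 markers of adipocytes, 4 had a log2 fold change of KO over flox above 0 and 4 below. The former were *Lep* (0.59), *Lipe* (0.19), *Adipoq* (0.16) and *Plin1* (0.02). The latter were *Cidec* (−0.74) and *Plin4* (−0.77), of the lipid droplet, *Pparg* (−0.63), the regulator of adipocyte genes, and *Fabp4* (−0.21). *Plin4* was at 789, 1077 and 946 in flox and 618, 405 and 646 in KO. It was the only 1 of the 8 with every KO library below every flox library, against 5.26% of all genes tested. None of these markers passed after adjustment in limma. The part of these differences in the results below was not tested. In whole tissue, fewer cells of a type and less RNA per cell cannot be told apart.

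The barrel was the most abundant part. Mean FPKM over the 6 libraries was 57.4 (*Psma5*) to 140.2 (*Psma6*) for the 7 tested alpha subunits, 111 (*Psmb1*) to 129 (*Psmb3*) for the 4 beta subunits without an active site, and 105 (*Psmb5*) to 128 (*Psmb7*) for the constitutive catalytic subunits. The immuno catalytic subunits were lower, at 41.1 for *Psmb8*, 33.6 for *Psmb10* and 26.7 for *Psmb9*. Their ranges over the libraries overlapped each other but none reached that of *Psmb5*, *Psmb6* or *Psmb7*. Levels in the cap were 46.6 (*Psmc6*) to 97.4 (*Psmc1*) for the ATPases and 42.8 (*Psmd11*) to 108 (*Psmd8*) for the non-ATPases. The PA28 genes *Psme1* (98.9) and *Psme2* (108) stood as high as the barrel, whereas the nuclear activator *Psme3* was at 45.7 and *Psme4*, encoding PA200, at 20.4. Chaperones, which help to assemble the particle and leave it, and the inhibitor *Psmf1* were between 10.4 (*Psmd9*) and 25.1 (*Psmg1*).

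**Figure D1:**
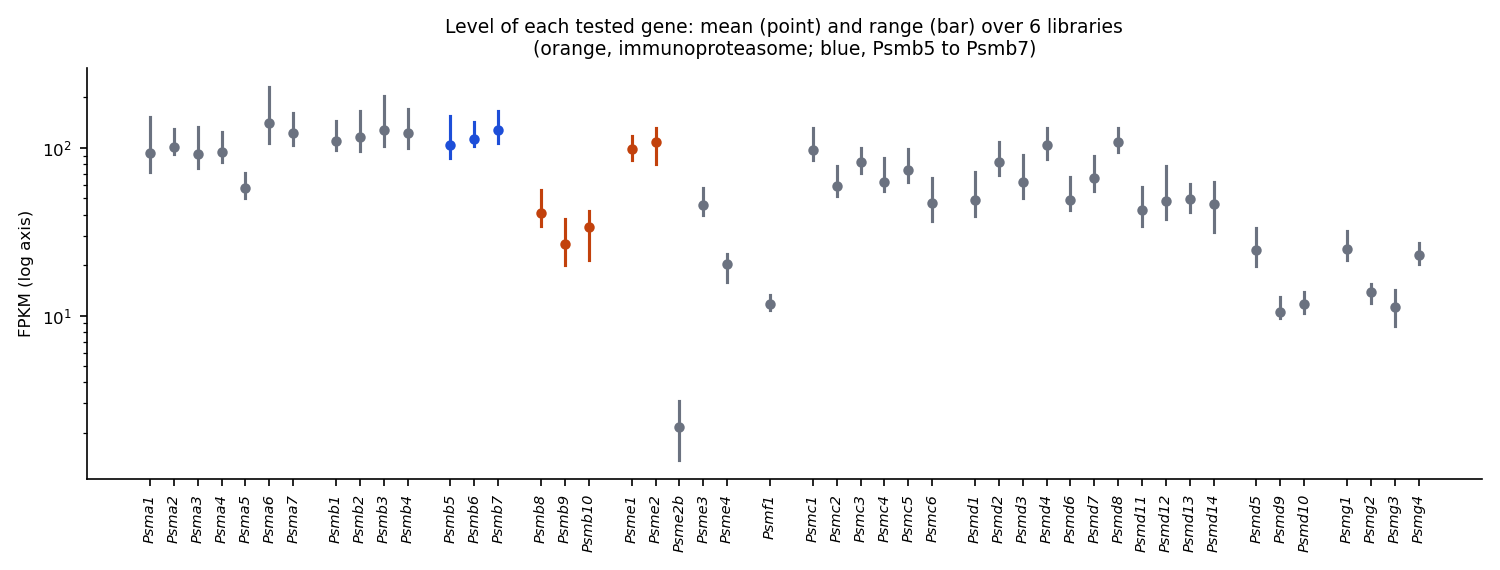
FPKM (log axis) of the 47 tested proteasome genes, ordered by role; points are means and bars the range over 6 libraries. Of the immunoproteasome genes (orange), *Psmb8*, *Psmb9* and *Psmb10* lie at 26.7 to 41.1, below the constitutive *Psmb5*, *Psmb6* and *Psmb7* (blue) at 105 to 128.

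Of the members below the filter, *Psma8*, the alpha subunit of germ cells, had an FPKM of 0.195, 0.235 and 0.122 in flox and 0.550, 0.164 and 0.179 in KO, which rested on 5 to 20 fragments a library. *Psmb11*, the catalytic subunit of the thymus proteasome, rested on 1, 1 and 2 fragments in flox and 3, 3 and 4 in KO. These counts are near the limit of detection, and no difference was read from them.

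The immuno subunits *Psmb8* and *Psmb9* lie side by side on chromosome 17 (mm10), with the peptide transporter gene *Tap1* between them. *Psmb9* (34182030 to 34187330, minus strand) and *Tap1* are transcribed away from each other from starts separated by 225 bases, and the start of *Psmb8* (34198195) follows 969 bases after the end of *Tap1*. *Psme1* and *Psme2* both lie on chromosome 14, 5912 bases apart. Of the 49 members, 41 matched a window of 250 bases before to 50 bases after the gene start in RefSeq (GRCm38.p6). The 8 without a window, *Psma8*, *Psmb1*, *Psmb2*, *Psmb7*, *Psmc3*, *Psmd3*, *Psmd7* and *Psmg2*, were not searched. Both strands of the windows were searched for 4 sets of letters. The letters GAAA, followed after any 2 bases by GAAA, as in interferon-stimulated response elements, were in 5 members (*Psmb3*, *Psmd4*, *Psmd9*, *Psme1* and *Psmg4*) and in 3.44% of all 32851 windows. The letters TTCNNNGAA, as in gamma-activated sites, were in 3 members (*Psmb8*, *Psmd2* and *Psmg1*) and in 8.3% of windows. TGACNNNGC, as in the antioxidant response elements bound by NFE2L1 with small MAF proteins, was in 6 members (*Psmb5*, *Psmb6*, *Psmc6*, *Psmd9*, *Psmd12* and *Psme4*) and in 12.4% of windows. CCAAT was in 14 members and in 37.4% of windows. No site of one motif overlapped a site of another in the members. The stretches with these letters are shown for the immuno subunits, and for the constitutive subunits they replace, because the comparison below sets these genes against each other. Each reads 5′ to 3′ on the strand of the gene, on that of *Tap1* for the interval shared with *Psmb9*, with the matched letters in capitals. They are the TTCNNNGAA match of *Psmb8* (chr17:34198078-34198126, plus strand), the reverse complement of the repeated GAAA just past the start of *Psme1* (chr14:55578493-55578522, plus strand), the TGACNNNGC matches of *Psmb5* (chr14:54618014-54618062, minus strand) and *Psmb6* (chr11:70525328-70525356, plus strand), and the whole interval from the start of *Psmb9* to that of *Tap1* (chr17:34187331-34187555, plus strand), in which CCAAT is marked. A match is a description of letters, and binding was not measured.
Psmb8: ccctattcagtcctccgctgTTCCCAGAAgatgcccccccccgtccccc
Psme1: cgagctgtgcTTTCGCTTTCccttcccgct
Psmb5: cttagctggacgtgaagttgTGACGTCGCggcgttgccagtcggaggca
Psmb6: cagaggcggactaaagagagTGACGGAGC
Psmb9 to Tap1: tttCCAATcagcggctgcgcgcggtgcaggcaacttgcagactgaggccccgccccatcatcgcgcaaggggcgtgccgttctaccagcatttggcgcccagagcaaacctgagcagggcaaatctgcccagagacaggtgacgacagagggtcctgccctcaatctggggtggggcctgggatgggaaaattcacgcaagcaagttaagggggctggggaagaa

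Between genotypes, no proteasome gene passed the test. limma on log2(FPKM + 1) gave an adjusted p under 0.05 for 0 of the 47 tested members and for 0% of the 12670 genes tested. At an unadjusted p under 0.05 it gave 0 members and 425 of all genes, or 3.35%. The log2 fold change of KO over flox was above 0 for 14 members and below 0 for 33, with a median of −0.08 against −0.03 for all genes. After scaling by trimmed means the median of all genes was 0.00 and that of the members −0.04, with 16 above 0 and 31 below. The 5 immunoproteasome genes lay on the positive side (5 of 5, median 0.17), *Psmb5*, *Psmb6* and *Psmb7* on the negative side (0 of 3 above 0, median −0.13), and 9 of the 39 remaining genes were above 0 (median −0.11). These are counts of uncalled values, and each 95% interval included 0. The paper reports *Scd* genes as reduced after loss of adipocyte *Armc5* in its RNA-seq of this tissue. The limma fit called no gene of the table, so it did not recover those calls. The targeted gene *Armc5* had a log2 fold change of −0.21 (SE 0.17) and was not called either. The absence of calls among the members therefore cannot show that their levels were unchanged.

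**Figure D2:**
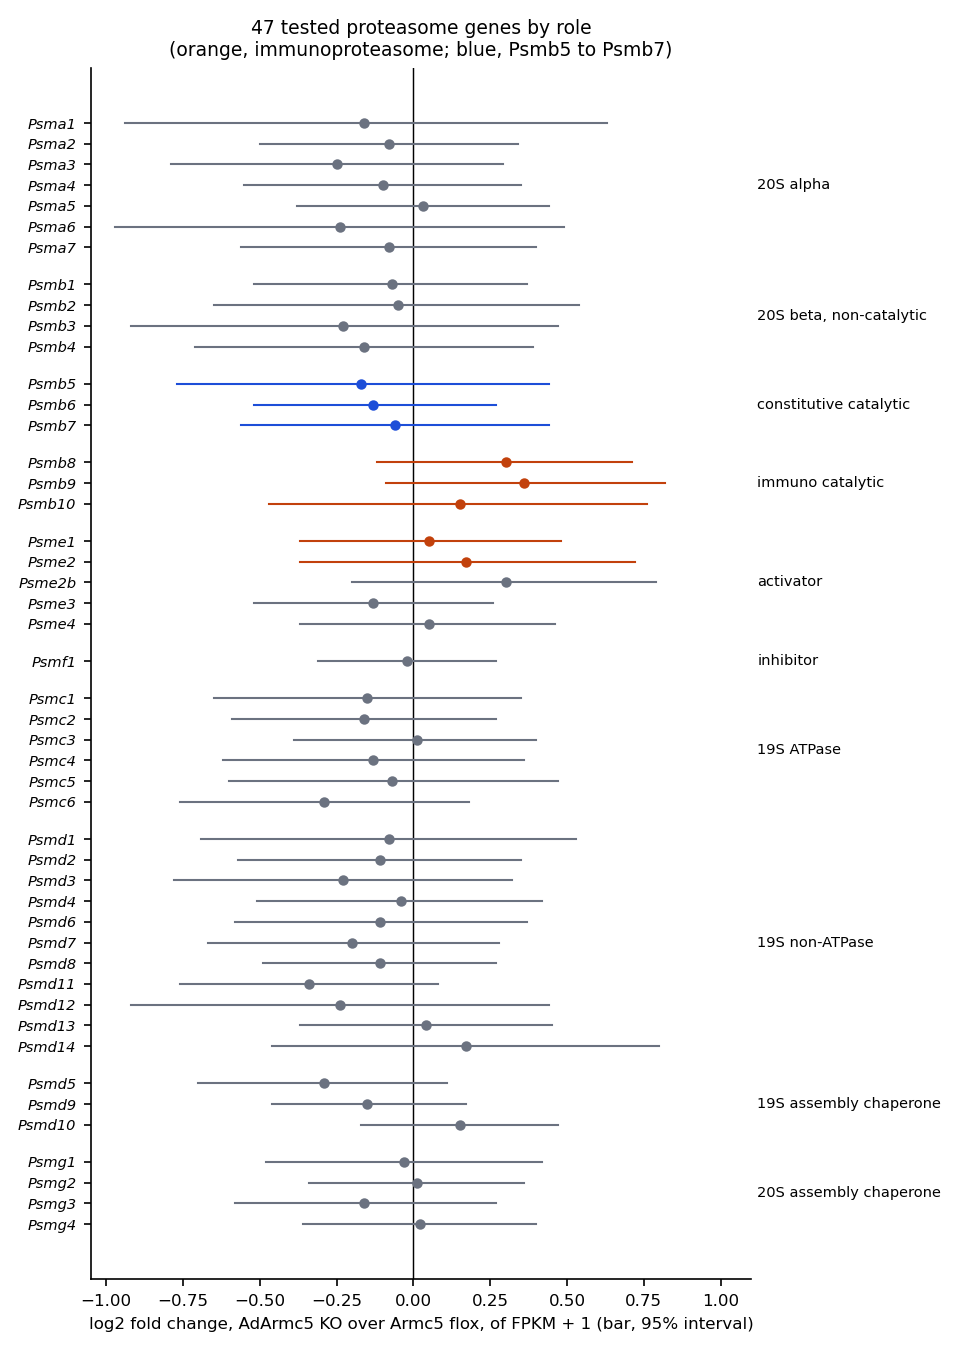
Log2 fold change of AdArmc5 KO over Armc5 flox, on the scale of FPKM + 1, for the 47 tested members by role, with 95% intervals from limma (3 libraries a group). The 5 immunoproteasome genes (orange) have positive values between 0.05 and 0.36 and the 3 constitutive catalytic genes (blue) negative ones between −0.17 and −0.06, with intervals that include 0 for all genes.

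Among the catalytic subunits induced by interferon, *Psmb9* (LMP2), which takes the place of PSMB6, was at 20.1, 22.5 and 26.7 FPKM in flox 1, 2 and 3 and 26.5, 26.4 and 37.7 in KO 1, 2 and 3. Flox 3 lay just above KO 1 and KO 2, so that the groups overlapped. The log2 fold change was 0.36 (SE 0.19, 95% interval −0.09 to 0.82, limma adjusted p = 0.98). *Psmb8* (LMP7), which takes the place of PSMB5, was at 35.8, 34.2 and 39.8 in flox and 42.6, 38.2 and 56.2 in KO. Its KO 2 value fell below flox 3, and its log2 fold change was 0.30 (SE 0.17, interval −0.12 to 0.71, limma adjusted p = 0.98). KO 3 was the highest library for both genes, and without it their log2 fold changes were 0.14 for *Psmb8* and 0.20 for *Psmb9*. *Psmb10* (MECL-1), which takes the place of PSMB7, was at 21.5, 33.4 and 42.2 in flox and 32.9, 31.9 and 39.6 in KO. Its KO values lay inside the flox range, with a log2 fold change of 0.15 (SE 0.25) that turned to −0.11 without flox 1, the lowest library.

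The PA28 activator, a ring that opens the barrel without ubiquitin, did not differ beyond its spread either. *Psme1* was at 89.3, 85.1 and 118 in flox and 106, 88.5 and 107 in KO, with a log2 fold change of 0.05 (SE 0.17). *Psme2* was at 79.7, 97.2 and 131 in flox and 127, 94.4 and 121 in KO, with a log2 fold change of 0.17 (SE 0.22) that was 0.01 without flox 1 and 0.36 without flox 3. For both genes flox 3 was the highest of the 6 libraries. *Psme2b*, a near copy of *Psme2*, was at 1.37, 1.74 and 2.45 in flox and 3.08, 2.12 and 2.26 in KO (log2 fold change 0.30). Its normalized counts were not whole multiples of a fragment, within 0.1 of a fragment, in 5 libraries, so its level is uncertain. Those of *Psme2* were whole in all libraries, and the cause was not tested. Among the members, *Psmb5* in KO 3 was the only other value that was not whole.

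The constitutive catalytic subunits had the opposite sign. *Psmb5*, with the chymotrypsin-like site that bortezomib blocks, was at 95.1, 86.9 and 155 in flox and 89.6, 89.98 and 112 in KO. *Psmb6*, with the caspase-like site, was at 111, 104 and 142 in flox and 104, 103 and 118 in KO. *Psmb7*, with the trypsin-like site, was at 107, 119 and 167 in flox and 132, 108 and 132 in KO. Flox 3 was the highest library for all 3 genes, and the rest of the libraries overlapped. The log2 fold changes were −0.17 for *Psmb5* (SE 0.25), −0.13 for *Psmb6* (SE 0.16) and −0.06 for *Psmb7* (SE 0.21). Without flox 3 they were 0.09, 0.01 and 0.13.

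**Figure D3:**
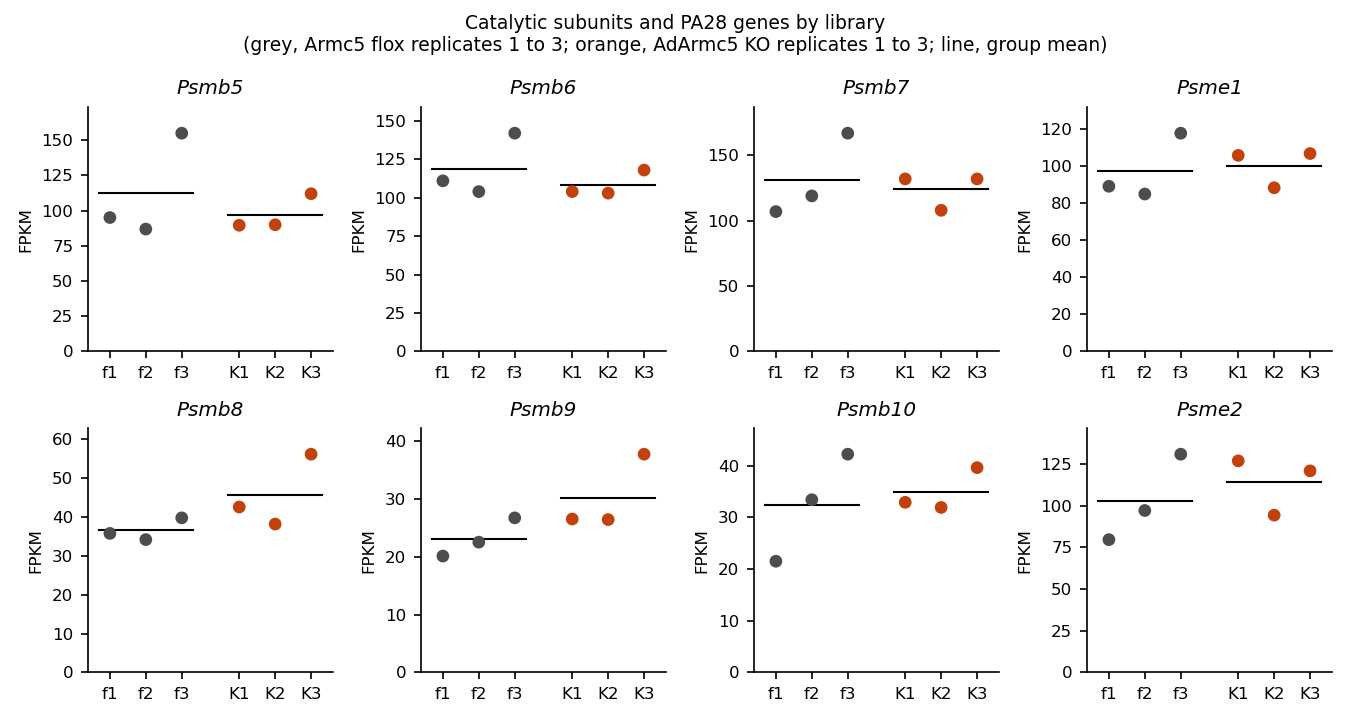
FPKM of the 3 constitutive catalytic subunits, the 3 immuno subunits and the PA28 genes in each library (f, Armc5 flox, grey; K, AdArmc5 KO, orange; line, group mean; n = 3 each). *Psmb5*, *Psmb6* and *Psmb7* are highest in flox 3 (155, 142 and 167), *Psmb8* and *Psmb9* in the library labelled KO 3 (56.2 and 37.7).

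Within a library, the ratio of an immuno subunit to the subunit it replaces does not depend on scaling between libraries. The ratio of *Psmb8* to *Psmb5* was 0.376, 0.394 and 0.257 in flox and 0.475, 0.424 and 0.5003 in KO. All KO libraries were above all flox libraries. *Psmb8* made up 25.3% ± 4.27 of the FPKM of the pair in flox and 31.8% ± 1.82 in KO (SD, n = 3). The difference of the log2 ratios was 0.46, or 1.38-fold. An exact permutation test, two-sided, gave p = 0.1, the smallest that 3 against 3 libraries allow, and 0.15 after adjustment over the 3 ratios, so the difference cannot pass 0.05 by this test. With any other gene in the place of *Psmb8*, 1.95% of 12669 genes had all KO libraries above all flox libraries in their ratio to *Psmb5*. The lowest ratio was that of flox 3, and without this library the difference was 0.27, with the KO libraries still above flox 1 and flox 2, and without flox 1 and KO 2 it was 0.61.

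The ratio of *Psmb9* to *Psmb6* was 0.181, 0.215 and 0.188 in flox and 0.254, 0.256 and 0.321 in KO. Again all KO libraries were above all flox libraries, and *Psmb9* made up 16.3% ± 1.26 of the pair in flox and 21.6% ± 2.31 in KO (SD, n = 3). The difference of the log2 ratios was 0.49, or 1.40-fold (exact permutation test, two-sided, p = 0.1, adjusted 0.15). Of all genes set against *Psmb6*, 4.02% had such a separation. The difference was 0.38 without KO 3 and 0.46 without flox 3, and 0.49 without flox 1 and KO 2. The ratio of *Psmb10* to *Psmb7* was 0.201, 0.281 and 0.252 in flox and 0.249, 0.295 and 0.301 in KO. Here KO 1 lay below both flox 2 and flox 3, and the difference of 0.20 had an exact p of 0.3. It was 0.04 without flox 1 and KO 2, and 0.08 without flox 1 alone. Of all genes set against *Psmb7*, 2.15% were separated.

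**Figure D4:**
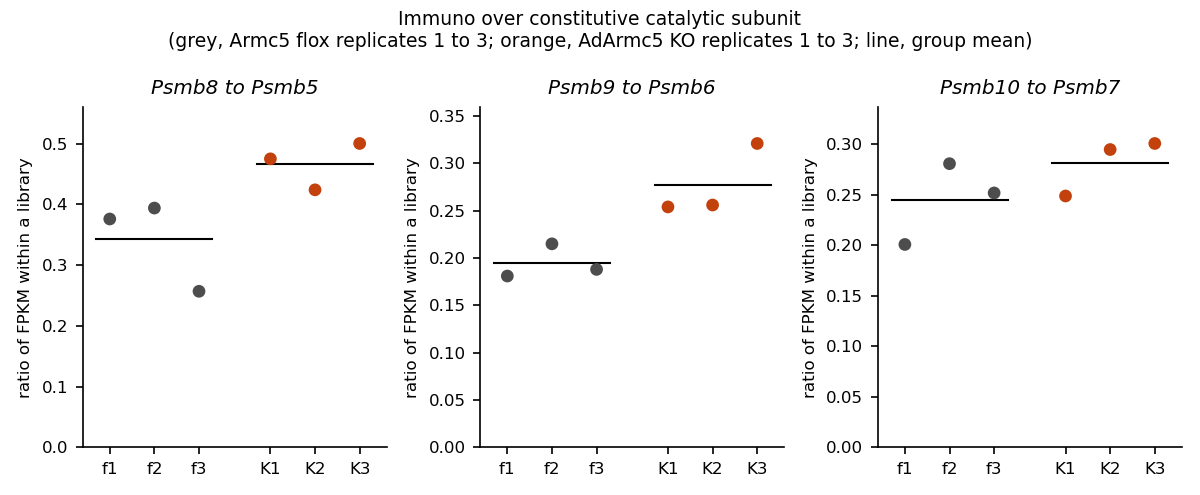
Ratio of the FPKM of each immuno catalytic subunit to that of the constitutive subunit it replaces, within each library (f, Armc5 flox, grey; K, AdArmc5 KO, orange; line, group mean; n = 3 each). The KO libraries lie above all flox libraries for *Psmb8* to *Psmb5* (0.424 to 0.5003 against 0.257 to 0.394) and *Psmb9* to *Psmb6* (0.254 to 0.321 against 0.181 to 0.215), and overlap them for *Psmb10* to *Psmb7*.

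A pair of ratios chosen after the values were seen set the interferon-induced PA28 genes against *Psme3*, the activator of the nucleus. *Psme1* to *Psme3* was 2.08, 1.95 and 2.05 in flox and 2.50, 2.22 and 2.22 in KO, and *Psme2* to *Psme3* was 1.86, 2.23 and 2.27 in flox and 3.001, 2.37 and 2.52 in KO. In both, the KO libraries were above the flox libraries, as for 4.07% of all genes set against *Psme3*. Over the whole group, the mean log2 level of the 5 immunoproteasome genes minus that of the other 42 tested members was −0.19, −0.03 and −0.21 in flox and 0.17, 0.05 and 0.26 in KO.

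Immunoproteasome subunits are abundant in leukocytes, so markers of these cells were set beside the ratios. All 10 macrophage markers passed the filter and 9 had a log2 fold change above 0, with summed FPKM of 748, 1442 and 804 in flox and 1624, 1026 and 929.9 in KO. The 5 markers of leukocytes of all kinds were 5 of 5 above 0, with sums of 119, 173 and 95.02 in flox and 245, 148 and 544 in KO. Most of the value of KO 3 came from *Cd52* (446, against 27.9 to 80.1 in the other libraries). KO 3 was also the library with genes of the epididymal duct and vas deferens (summed FPKM 3807). The part of that tissue in the *Cd52* level was not tested, and no level of leukocytes was read from the sum of KO 3. *Ptprc*, which encodes CD45, was at 7.40, 15.1 and 7.17 in flox and 20.04, 9.64 and 12.1 in KO. No marker of either list was at 0. For *Ptprc* and the macrophage sum the groups overlapped, with flox 2 above KO 2 and KO 3. The macrophage markers *Cd68*, at 56.2, 94.9 and 62.0 in flox and 148, 119 and 99.3 in KO, and *Fcgr1*, at 3.51, 2.53 and 2.10 in flox and 6.09, 5.99 and 5.95 in KO, had every KO library above every flox library. They were the only 2 of the 10 macrophage markers so separated, against 3.54% of all genes. Both had an unadjusted p under 0.05 in limma, against 3.35% of all genes, and did not pass after adjustment. *Cd14* (−0.47) was the macrophage marker with a log2 fold change below 0. Sums for 9 markers of T and NK cells were 9.89 to 14.9 in flox and 9.02 to 21.4 in KO, those for 4 markers of B cells 6.48 to 10.05 and 4.56 to 5.52, and those for 5 markers of dendritic cells 12.05 to 15.3 and 12.4 to 25.96. The part of these cells in the ratios was not tested.

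Of 10 other genes of antigen processing and of its interferon control, 9 had a log2 fold change above 0 in limma. Their median was 0.41, and 5 of the 10 had an unadjusted p under 0.05, against 3.35% of all genes, but none passed after adjustment. Every KO library was above every flox library in 5 of the 10, against 3.54% of all genes and 0 of the 47 tested members. The list was chosen with earlier results of these data known, so these shares describe the listed genes and are no test of them. *Irf8*, a transcription factor of myeloid cells, was at 9.05, 8.11 and 7.37 in flox and 16.2, 13.2 and 13.4 in KO (log2 fold change 0.73, SE 0.14, limma adjusted p = 0.76). *Irf9*, which binds interferon-stimulated elements in a complex with STAT2, was at 17.5, 11.7 and 12.4 in flox and 21.2, 18.8 and 25.5 in KO (0.63, SE 0.19, limma adjusted p = 0.98). *Tap1*, which shares its start region with *Psmb9* in the sequence above, was at 15.003, 13.7 and 11.3 in flox and 17.4, 16.5 and 25.6 in KO (0.52, SE 0.20, limma adjusted p = 0.98). Thus *Tap1* separated the groups where *Psmb9* did not, and flox 3 was the lowest library for *Tap1* but the highest flox library for *Psmb9*. *Stat2* was at 12.7, 14.5 and 12.1 in flox and 20.1, 14.5 and 24.8 in KO (0.53), with KO 2 level with flox 2. *Stat2* and *B2m* (0.74), which encodes the light chain of MHC class I, were the other 2 genes at an unadjusted p under 0.05. *Nlrc5*, the activator of MHC class I transcription, was at 5.65, 8.36 and 8.68 in flox and 8.81, 8.68 and 10.8 in KO (0.30, SE 0.19).

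Flox replicate 3 held the highest level for most constitutive genes. It was the highest of the 6 libraries for 42 of the 47 tested members, against 32.4% of all genes tested. The log2 of its level over the mean of flox 1 and flox 2 had a median of 0.50 over the members and 0.03 over all genes, and it was above 0 for 45 of 47. Higher levels in flox 3 were found in every role. The median was 0.55 for the alpha subunits (7 of 7 highest in flox 3), 0.70 for *Psmb1* to *Psmb4* (4 of 4), 0.56 for *Psmb5* to *Psmb7* (3 of 3), 0.56 for the ATPases (6 of 6) and 0.52 for the non-ATPases (11 of 11). It was 0.31 for the immuno catalytic subunits, 0.32 for the chaperones of the cap and 0.38 for those of the barrel. The exceptions were *Psmb8*, *Psmb9* (highest in KO 3), *Psmd10* (KO 2), *Psme2b* and *Psmg2* (KO 1). The largest values were those of *Psma1* (1.02), *Psma6* (0.98), *Psmd12* (0.93) and *Psmb3* (0.90). Highest over lowest library, the 42 members outside the immunoproteasome spanned 1.56-fold in the median, and 1.27-fold without flox 3. Flox 3 was the highest library for 39 of these 42, so leaving it out lowers this span by construction. Without this library the median log2 fold change of the tested members was 0.09, with 38 above 0 and 9 below, and the negative direction of the constitutive genes given above was lost. In flox 3, 6644 of the 12670 genes tested exceeded the mean of flox 1 and flox 2.

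**Figure D5:**
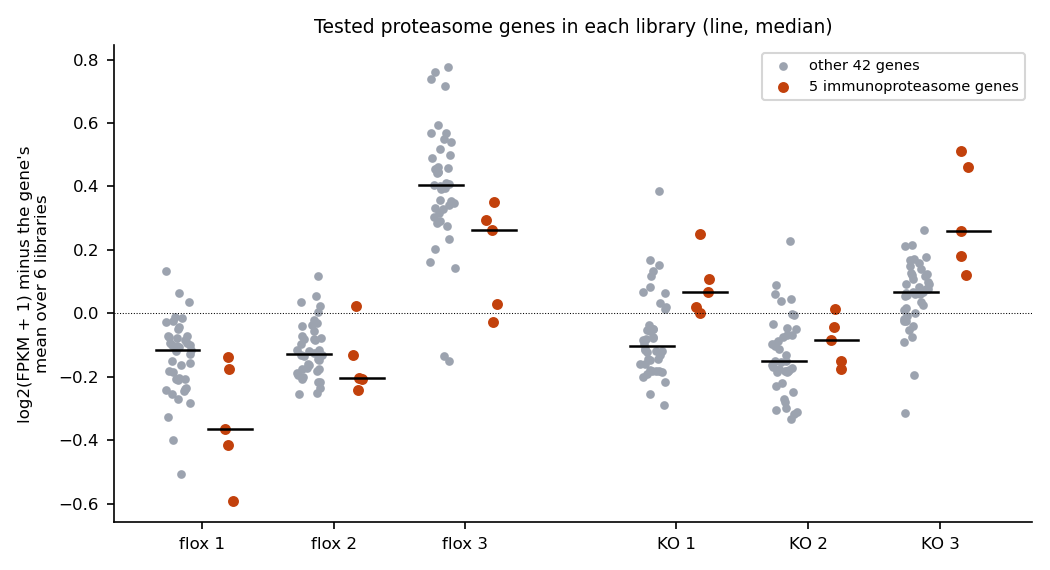
Log2(FPKM + 1) of each tested member minus its mean over the 6 libraries, by library (grey, 42 genes outside the immunoproteasome; orange, 5 immunoproteasome genes; line, median). The 42 genes have medians between −0.15 and 0.07 in 5 libraries and 0.41 in flox 3, and the 5 immunoproteasome genes are at −0.36, −0.21 and 0.26 in flox 1, 2 and 3 and 0.07, −0.08 and 0.26 in KO 1, 2 and 3.

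In the alpha ring, which gates the barrel, no subunit passed the test. *Psma3*, with the smallest p of the ring, was at 85.5, 82.5 and 134 in flox and 78.2, 75.6 and 94.97 in KO (log2 fold change −0.25). *Psma6*, the most abundant, was at 117, 117 and 232 in flox and 124, 107 and 144 in KO (−0.24). *Psma1* went from 74.4 and 75.3 in flox 1 and 2 to 153 in flox 3, against 79.1, 72.0 and 108 in KO. Apart from flox 3, the flox and KO libraries overlapped for these subunits. *Psma4* was at 84.2, 88.7 and 124 in flox and 90.8, 82.8 and 99.2 in KO (−0.10). *Psma2* (−0.08), *Psma7* (−0.08) and *Psma5* (0.03) were closer to 0, and the last, the least abundant of the ring, was at 50.1, 50.2 and 71.3 in flox and 58.4, 58.6 and 56.0 in KO. Of the beta subunits without an active site, *Psmb3* was at 105, 113 and 205 in flox and 107, 103 and 138 in KO (−0.23), and *Psmb1* (−0.07), *Psmb2* (−0.05) and *Psmb4* (−0.16) also had values below 0.

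In the base of the cap, the ATPases *Psmc1* to *Psmc6* form the ring that unfolds substrates. *Psmc6* was at 42.3, 47.01 and 66.1 in flox and 43.5, 36.8 and 44.2 in KO, with a log2 fold change of −0.29 (SE 0.20). KO 1 exceeded flox 1, so the groups overlapped, and without flox 3 the log2 fold change was −0.11. *Psmc2* was at 54.6, 55.7 and 78.1 in flox and 51.7, 54.2 and 61.0 in KO (−0.16). *Psmc1* was at 90.03, 87.5 and 132 in flox and 84.5, 84.7 and 106 in KO (−0.15). For both *Psmc2* and *Psmc1*, KO 1 and KO 2 were below every flox library and KO 3 was not. *Psmc4* was at 55.3, 55.5 and 86.6 in flox and 56.5, 57.8 and 61.9 in KO (−0.13), and *Psmc5* (−0.07) and *Psmc3* (0.01) were nearer to 0.

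Among the non-ATPases, *Psmd11*, a subunit of the lid, had the smallest p of all members. It was at 40.04, 45.8 and 58.4 in flox and 37.0, 34.1 and 41.4 in KO. Only KO 3 reached into the flox range, just above flox 1, and the log2 fold change was −0.34 (SE 0.17, interval −0.76 to 0.08, limma adjusted p = 0.98). Without flox 1 it was −0.46, with an unadjusted p under 0.05, as for 572 of all 12670 genes in that fit, and without flox 3 −0.19. *Psmd3*, of the lid, was at 60.0, 55.3 and 90.9 in flox and 50.4, 54.4 and 67.5 in KO (−0.23). *Psmd7*, the partner of the deubiquitinase PSMD14, was at 59.7, 64.3 and 89.2 in flox and 57.4, 55.6 and 70.9 in KO (−0.20). *Psmd12*, also of the lid, was at 41.5, 39.9 and 78.3 in flox and 41.9, 37.5 and 49.7 in KO (−0.24). In each of these, KO 3 was the highest KO library and flox 3 the highest flox library. *Psmd14*, which cuts ubiquitin off the substrate, was at 31.5, 39.1 and 62.3 in flox and 49.6, 42.1 and 52.6 in KO (0.17). When flox 3 was left out, it was the only member with an unadjusted p under 0.05, against 293 of all 12670 genes. *Psmd8*, the most abundant of the cap among the members chosen by name, was at 104, 102 and 132 in flox and 105, 95.1 and 112 in KO (−0.11). The scaffold subunits *Psmd1* (−0.08) and *Psmd2* (−0.11), the ubiquitin receptor *Psmd4* (−0.04), *Psmd6* (−0.11) and *Psmd13* (0.04) were the other members of the cap.

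Other regulators and chaperones also stayed within their spread. *Psme3* was at 42.9, 43.6 and 57.4 in flox and 42.4, 39.8 and 48.1 in KO (−0.13), *Psme4* had a log2 fold change of 0.05 and the inhibitor *Psmf1* of −0.02. *Psmd5*, a chaperone that holds the ATPases until the cap is joined, was at 24.97, 23.8 and 33.4 in flox and 21.7, 19.9 and 24.2 in KO (−0.29, SE 0.17, limma adjusted p = 0.98). KO 3 lay between flox 2 and flox 1, and without flox 3 the log2 fold change was −0.15. *Psmd9*, of the same kind, was at 10.2, 10.1 and 12.9 in flox and 9.80, 9.63 and 10.1 in KO (−0.15), and was the one tested member with every KO library below every flox library, against 5.26% of all genes. KO 3 lay below flox 2 by less than the digits given show. *Psmd10* (gankyrin), the third of these chaperones, was at 12.2, 10.4 and 10.5 in flox and 12.2, 13.8 and 10.997 in KO (0.15). Of the chaperones that build the barrel, *Psmg3* was at 10.96, 10.3 and 14.3 in flox and 12.1, 10.8 and 8.72 in KO (−0.16), *Psmg1*, the most abundant, was at 23.1, 21.6 and 31.97 in flox and 23.98, 21.9 and 28.3 in KO (−0.03), and *Psmg2* (0.01) and *Psmg4* (0.02) were near 0.

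The regulators of the constitutive genes showed no call. All 13 genes for NFE2L1 and its processing passed the filter, with 4 log2 fold changes above 0, 9 below, a median of −0.11 and 0 at an unadjusted p under 0.05 in limma. *Nfe2l1* itself was at 124, 175 and 160.3 in flox and 181, 149 and 144 in KO (0.05, SE 0.19). Its mRNA was thus not highest in flox 3, the library in which the constitutive subunits were. *Ddi2*, the protease that cleaves NFE2L1 into its active form, was at 13.5, 11.3 and 19.3 in flox and 11.6, 9.92 and 13.7 in KO (−0.28). *Vcp*, which extracts NFE2L1 from the endoplasmic reticulum, was at 139.5, 152 and 227 in flox and 153, 138 and 179.6 in KO (−0.11). Both *Ddi2* and *Vcp* were highest in flox 3, as were 5 of the 13 genes in all, near the 32.4% of all genes tested. *Mafg*, a small MAF partner, was at 26.7, 18.2 and 20.3 in flox and 18.5, 16.1 and 20.7 in KO (−0.22), and its relative *Maff* was at 12.5, 5.54 and 4.34 in flox and 7.24, 6.13 and 2.41 in KO (−0.41, SE 0.46). *Nfe2l2*, the related factor NRF2, was at 39.2, 43.7 and 51.96 in flox and 44.2, 34.3 and 40.5 in KO (−0.17). NFE2L1 protein was not measured.

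Of 15 partners of the proteasome outside the name rule, 2 had a log2 fold change above 0 and 13 below, with a median of −0.09 and 0 at an unadjusted p under 0.05 in limma. As among the members, flox 3 was the highest library for 11 of the 15, against 32.4% of all genes tested. *Adrm1*, a ubiquitin receptor of the cap, was at 89.0, 74.2 and 131 in flox and 75.7, 60.3 and 81.4 in KO (−0.40, SE 0.24). *Akirin2*, which brings proteasomes into the nucleus, was at 20.9, 24.8 and 24.01 in flox and 20.4, 20.8 and 20.1 in KO (−0.17). It was the only 1 of the 15 with every KO library below every flox library, against 5.26% of all genes. *Txnl1*, a thioredoxin bound to the cap, was at 25.1, 26.1 and 31.6 in flox and 26.7, 23.4 and 22.02 in KO (−0.19, SE 0.14). *Pomp*, the maturation factor of the barrel, was at 92.8, 103 and 135 in flox and 127, 93.6 and 111 in KO (0.01).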

How the data were processed

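The RNA-seq libraries (TruSeq stranded mRNA) of refed epididymal WAT were compared, with genotype and replicate number from the labels. Per the submitters' processing notes and the paper, reads were mapped to mm10 with TopHat2 (2.0.13), Bowtie2 (2.2.3) and SAMtools (0.1.19). The deposited FPKM were made by the authors with Cuffnorm (2.2.1) and carry its scaling between libraries; the annotation they used is not stated in the paper or labels. A deposited signal, normalized counts of fragments scaled per library by the authors, served for depth and as an alternative. Between 98.7% and 98.9% of these were whole multiples of 1 fragment within 0.1. Their own fold changes and p-values, and 6 columns of per-sample log2 values, were not used.

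FPKM were tested as log2(FPKM + 1) with limma (3.58.1, R 4.3.3), genotype as the only term, with a trend and Benjamini-Hochberg adjustment over the 12670 genes with FPKM of at least 1 in at least 3 libraries. A fold change on this scale understates the change of low genes. The fit was tested on simulated data. Ratios within a library used an exact permutation test. FPKM carry no counting error, and *Psmb9*, the immuno catalytic subunit with the lowest level, rested on 399 to 971 fragments. Per-library values are given for the immuno and constitutive catalytic subunits, PA28, members below the filter, and in each role the up to 4 members of smallest p and those of highest and lowest level; in the other lists, the up to 4 genes of smallest p, and a few chosen after their values were seen. The members and lists were chosen with earlier results of these data known. Some genes of the lists are not reported here and enter no list count.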

Additional observations from a re-analysis of the deposited data

How the results depend on the processing

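Under 2 smaller pseudocounts, no filter on low values, a minimum in 1 library, trimmed means, quantile normalization, no trend, normalized counts and the ratio of group means, the direction held for the 11 members refitted one by one (*Psmb5* to *Psmb10*, *Psme1*, *Psme2*, *Psmc6*, *Psmd5* and *Psmd11*). Over the 47 tested members, the 14 values above 0 and 33 below became 16 and 31 under trimmed means and quantile normalization. In these settings 0 genes of the table passed limma's adjusted threshold wherever a test was run. Leaving out each library in turn gave log2 fold changes of −0.11 to 0.36 for *Psmb10*, −0.03 to 0.20 for *Psme1*, −0.32 to 0.09 for *Psmb5*, −0.21 to 0.01 for *Psmb6* and −0.19 to 0.13 for *Psmb7*. It gave 0 to 1 members at an unadjusted p under 0.05 in limma. These were *Psmd11* without flox 1, where 572 of all 12670 genes were under it, and *Psmd14* without flox 3, where 293 were. Over the same fits *Psmb8* ranged from 0.14 to 0.41, *Psmb9* from 0.20 to 0.47, *Psme2* from 0.01 to 0.36, *Psmc6* from −0.42 to −0.11, *Psmd5* from −0.38 to −0.15, *Psmd11* from −0.46 to −0.19, and the log2 ratios from 0.27 to 0.57 (*Psmb8* to *Psmb5*), 0.38 to 0.56 (*Psmb9* to *Psmb6*) and 0.08 to 0.31 (*Psmb10* to *Psmb7*). The medians ranged from 0.01 to 0.36 for the immunoproteasome genes, −0.21 to 0.09 for *Psmb5* to *Psmb7* and −0.19 to 0.09 for all tested members. Without flox 1 and KO 2, the libraries with genes of ciliated cells, *Psmb10* was at −0.06. With the replicate number as a block, 1 of the 47 tested members (*Psmb9*) and 575 of all 12670 genes had an unadjusted p under 0.05 in limma. The fit without the block had 0 members and 425 genes. Of the same-numbered libraries only those of number 3 deviated together (correlations of −0.53, −0.41 and 0.58 for numbers 1, 2 and 3), while flox 1 with KO 2 (0.75) and flox 2 with KO 1 (0.68) correlated more. Littermates were compared in the study, but no source says that a number marks a litter, so the numbers were not taken to pair the libraries. The cause of these changes was not tested. The planned tests for counts were not run, because some genes gave no whole number of fragments. With 3 libraries a group, an exact test cannot go below 0.1.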
